A study of Ambystoma mexicanum with 8 samples.

Results

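The main fibrillar and type VI collagen chains of connective tissue were followed through axolotl limb cells sorted for a 4C DNA content. COL1A1 and COL1A2 build type I collagen, COL3A1 builds type III, COL5A1 is a chain of type V, and COL6A1 and COL6A3 are chains of type VI. The members were the identifiers in the deposited gene list whose last symbol before the AMEX60DD number is one of these 6 symbols. That rule found 8 identifiers among 60956. COL1A1 (AMEX60DD009937), COL1A2 (AMEX60DD022398), COL3A1 (AMEX60DD055165), COL6A1 (AMEX60DD055540) and COL6A3 (AMEX60DD055459) had 1 identifier each. COL5A1 had 3: AMEX60DD050718 held 1049469 UMIs (unique molecular identifiers, each standing for 1 captured RNA molecule), AMEX60DD031841 held 10027, and AMEX60DD031839, which the gene list names COL5A3-COL5A1, held 135. COL5A1 below means AMEX60DD050718 unless another identifier is given. No genome of the files' build was used here, so no coordinates are given.

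Fibrillar collagens are built as procollagen trimers, folded and hydroxylated in the endoplasmic reticulum, trimmed outside the cell and packed into banded fibrils. Type I is the bulk fibril of skin, tendon and bone, type III accompanies it in soft tissue, and type V is a minor chain known to control where fibrils start and how thick they grow. Type VI does not join these fibrils but forms beaded microfilaments around cells, and needs a COL6A1, a COL6A2 and a further chain such as COL6A3. In most vertebrate tissues fibroblasts are the main source of all of them. In zebrafish, epidermal cells are also known to express type I collagen genes.

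The study took limb tissue of wild-type axolotls (Ambystoma mexicanum), dissociated it with liberase, stained it with Hoechst, calcein AM and propidium iodide, and sorted live cells with a 4C DNA content. There were 4 libraries named Contra, whose limbs the design text describes as systemically activated and taken 14 days after an amputation, and 4 named Intact, from homeostatic limbs. The labels do not spell out Contra, give no age or sex, and do not say that the libraries came from separate animals, so p-values measure the spread between these libraries. A pair of 2C cells stuck together can pass a 4C gate. All 8 libraries are single-cell 3′ libraries, kept under their own numbers (Contra 1, 2, 3 and 5, Intact 1, 3, 4 and 5). They held 39721939 to 99777499 UMIs in Contra and 13344968 to 69023082 in Intact. After filtering, 33759 cells remained, 22849 Contra and 10910 Intact.

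Cells were clustered with all 75 collagen identifiers left out, so that the members shaped neither the clusters nor their names. Of 28 clusters, 10 were connective tissue-like (17189 cells), 7 epidermal-like (10208), 2 endothelial-like (2423), 1 erythroid-like (1205) and 1 mast cell or basophil-like (277), while 7 clusters with 2457 cells stayed unnamed. Connective tissue-like cells made up 28.1% to 74.3% of the cells of a Contra library and 15.4% to 68.0% of those of an Intact library. Because of that spread, members were compared within cell classes and never over whole libraries. Levels are CPM (counts per total UMIs, scaled to a common total), taken over a set of cells summed per library, and a library entered where it had at least 20 such cells. Since only the 3′ end of each RNA is counted, ratios between chains are compared between sets of cells and are not read as the makeup of a protein.

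The members were among the most abundant RNAs of the whole data set. COL1A1 ranked 2nd of all identifiers by UMIs with 1.35% of them, COL1A2 3rd with 1.27% and COL3A1 5th with 1.195%. COL6A3 ranked 31st, COL5A1 32nd and COL6A1 81st. The 8 member identifiers together took 6.18% to 7.39% of the UMIs of a library's connective tissue-like cells.

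In connective tissue-like cells COL1A1 averaged 18906 ± 2099 CPM (SD, n = 8 libraries), COL1A2 18501 CPM, COL3A1 19014 CPM, COL5A1 4466 CPM, COL6A1 2144 CPM and COL6A3 4239 CPM. Each member was found in nearly every such cell. Among 2000 UMIs drawn from each of 16344 cells, which leaves out 845 shallower ones, COL5A1 had a UMI in 99.1% of cells, with an exact Clopper-Pearson interval of 99.0% to 99.3%. COL1A1 had one in 97.1% of cells, COL3A1 in 96.9%, COL6A3 in 95.3% and COL6A1 in 88.4%. Without drawing, the shares were 99.4% for COL5A1 and 99.7% for COL1A1, at a median depth of 12916 UMIs. Intervals cover counting error only.

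The type I pair kept nearly 1 ratio throughout connective tissue. COL1A1/COL1A2 had a geometric mean of 1.02 over the 8 libraries, and over the 10 clusters it lay between 0.953 in cluster 2 and 1.16 in cluster 15, a span of 1.22-fold. The other ratios spread far more. COL3A1/COL1A1 spanned 15.2-fold, between 0.0975 in cluster 20 and 1.48 in cluster 6. COL5A1/COL1A1 spanned 16.1-fold, between 0.0907 in cluster 21 and 1.46 in cluster 1. COL6A1/COL6A3 spanned 4.45-fold, between 0.239 in cluster 15 and 1.06 in cluster 2. The clusters were drawn on other genes of the same cells, so these spans are descriptions and carry no test.

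**Figure D1:**
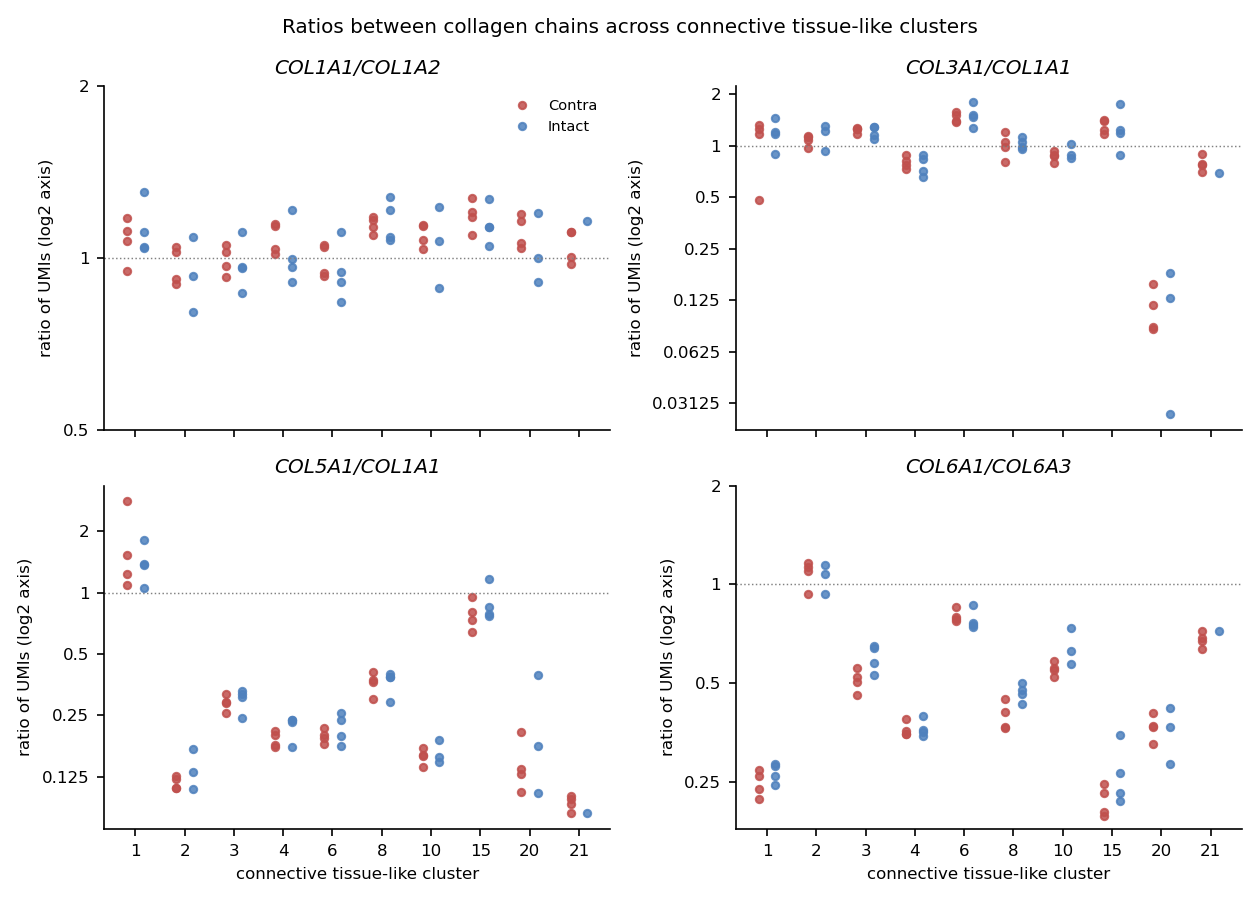
Ratio of UMIs of 2 chains (log2 axes) in each of the 10 connective tissue-like clusters; each point is 1 library with at least 20 cells of that cluster, Contra red and Intact blue, and the dotted line marks a ratio of 1. COL1A1/COL1A2 stays near 1 in all 10 clusters, COL3A1/COL1A1 drops to 0.0975 in cluster 20, COL5A1/COL1A1 is above 1 on average only in cluster 1, and COL6A1/COL6A3 is highest in cluster 2.

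Cluster 1 held 2859 cells led by EBF3, a transcription factor, LAMA2, a laminin chain of basement membranes, and ADGRD1, an adhesion receptor. It was poor in type I and type III chains and kept its type V chain. COL1A1 was at 1544, 3593, 3726 and 2899 CPM in its Contra libraries and at 4265, 3080, 3608 and 2778 CPM in its Intact libraries. COL5A1 was at 4340, 4431, 4048 and 4423 CPM in Contra and at 4480, 4239, 4921 and 5042 CPM in Intact. Every library thus had more COL5A1 than COL1A1 UMIs here, with COL5A1/COL1A1 between 1.05 and 2.81. Against the other connective tissue-like cells of the same library, COL1A1 was lower by a mean of 2.74 on the log2 scale (a difference of -2.74) in 8 of 8 libraries, while COL5A1 differed by 0.01 and was higher in 5 and lower in 3. COL6A1 was lower by more than COL6A3, at log2 differences of -1.93 and -0.91. The summed connective tissue markers of this cluster, 3888 to 6260 CPM, were also below those of the class, 15498 to 18303 CPM.

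Cluster 15 held 960 cells led by RSPO1, a Wnt agonist, GFRA2, a receptor of neurturin, and NPR3, a natriuretic peptide receptor. It had the same lean. COL1A1 averaged 4613 CPM, COL3A1 5860 CPM and COL5A1 3752 CPM over 8 libraries. Its COL5A1/COL1A1 was above that of the other connective tissue-like cells by 1.85 on the log2 scale in 8 of 8 libraries. Its COL6A1/COL6A3 was below theirs in 8 of 8, at a log2 difference of -1.12.

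Cluster 20 held 599 cells led by EMILIN3, an elastin-interface protein, ISM1, a secreted angiogenesis inhibitor, and HHIP, a Hedgehog antagonist. It had the most type I chain and little type III. COL1A1 was at 45213, 41036, 59978 and 27548 CPM in the 4 Contra libraries and at 51207, 14386 and 36696 CPM in Intact 3, 4 and 5. COL3A1 was at 5267, 6391, 5093 and 2393 CPM in Contra and at 6584, 2591 and 992 CPM in the same Intact libraries. COL3A1 was below the other connective tissue-like cells in 7 of 7 libraries, at a log2 difference of -2.46, whereas COL1A1 was above them in 6 of 7, at 1.00. Intact 1 had 5 such cells and was not used. The cluster also carried COL5A3, a further type V chain singled out here after its values were seen, at 624, 679, 481 and 887 CPM in Contra and 651, 1039 and 448 CPM in Intact, against 30.7 to 81.3 CPM in all connective tissue-like cells of a library.

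Within cluster 20 the type I chains were spread unevenly over cells. The top 10% of its cells held 53.0% of the COL1A1 UMIs, against 36.7% in the whole class, 56.3% in cluster 15 and 62.8% in cluster 1. These shares count undrawn UMIs, so differences in depth between cells enter them. Among 2000 UMIs drawn per cell, the median cell had 30 COL1A1 UMIs and the 90th percentile 204. In cluster 1 the top 10% of cells held 62.8% of COL1A1 but 29.6% of COL5A1, so the 2 chains also differed in how evenly they were spread.

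Clusters 2 and 6 lay at the other ends. Cluster 2 (2669 cells, led by MFAP5, a microfibril protein, THBS3, a thrombospondin, and CD248, a stromal cell surface receptor) had COL6A1/COL6A3 at 1.13, 1.16, 0.937 and 1.10 in Contra and at 1.15, 0.938 and 1.07 in Intact 1, 3 and 4. That ratio was above the one of the other connective tissue-like cells in 7 of 7 libraries, by 1.21 on the log2 scale. Cluster 6 (1746 cells, led by SEMA3E, a guidance cue, BMP2, a bone morphogenetic protein, and ADAMTS5, an aggrecan-cleaving protease) had the highest COL3A1, 28165 to 35247 CPM. Its COL3A1/COL1A1 was above the rest in 8 of 8 libraries, by 0.69 on the log2 scale.

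Ordered by mean CPM, COL1A1 ran from cluster 20 (39438) through 10 (29620), 2 (24628), 21 (23807), 6 (21189), 3 (20854), 4 (18241), 8 (15418) and 15 (4613) to 1 (3187). Library ranges of neighbours in that order overlapped except between clusters 8 and 15. COL3A1 ran from cluster 6 (31220) through 2 (26932), 10 (26307), 3 (25344), 21 (18159), 8 (15763), 4 (14218), 15 (5860) and 20 (4187) to 1 (3474), with gaps between 3 and 21 and between 4 and 15. COL1A1 levels spanned 12.4-fold over the 10 clusters and COL3A1 levels 8.99-fold.

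COL5A1 had the narrowest range, 2.84-fold, between 6117 CPM in cluster 3 (led by ALDH1A2, a retinoic acid-making enzyme) and 2151 CPM in cluster 21 (led by KAZALD1, a secreted protein, and PTX3, a pentraxin). Its neighbours overlapped except clusters 2 and 21. COL6A3 ran between 7595 CPM in cluster 20 and 2311 CPM in cluster 6, a span of 3.29-fold, and its only gap was between clusters 2 and 1. COL6A1 ran between 3267 CPM in cluster 2 and 612 CPM in cluster 1, a span of 5.34-fold, with gaps between 4 and 10, between 8 and 15 and between 15 and 1. Clusters 8 and 10, which carried TNMD, a tendon gene, differed in COL1A1, at 15418 and 29620 CPM.

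Likeness between chains was also read cell by cell. Over 16344 connective tissue-like cells thinned to 2000 UMIs, Pearson's r of log2(1 + UMIs) was 0.931 between COL1A1 and COL1A2, and 0.903 to 0.937 within single libraries. It was 0.767 between COL1A1 and COL3A1, 0.560 between COL1A1 and COL6A1 and 0.398 between COL6A1 and COL6A3. COL5A1 followed COL1A1 weakly, at 0.110, and COL6A3 somewhat more, at 0.264. These cells share libraries and a fixed depth, so the values are descriptions with no p.

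The genes most like each member across 27 clusters of at least 50 cells, by Pearson's r of log2(CPM + 1) among 11640 identifiers, were found by the same rule for every chain. For COL1A1 they were SERPINH1, the procollagen chaperone HSP47 (AMEX60DD036819, r = 0.986), FKBP7 (0.969), a prolyl isomerase of the endoplasmic reticulum, and SPARC (0.965), a collagen-binding matrix protein. COL1A2 had the same 3, with SERPINH1 at 0.990. For COL3A1 they were PRELP (0.992), a small proteoglycan, FN1 (0.988), fibronectin, and ARSI (0.981), a sulfatase. For COL5A1 they were LHFPL6 (0.972), PKD2 (0.969), a cation channel, and DBN1 (0.963), an actin-binding protein. COL6A1 was led by COL6A2 (0.999), its partner chain, OGN (0.993) and FN1 (0.980). COL6A3 was led by PDGFRB (0.970), a growth factor receptor, COL6A2 (0.969) and ANGPTL1 (0.967). The clusters share libraries, so these values too are descriptions.

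Outside connective tissue the members were counted in every class, where RNA that strays between droplets may add to them. Erythroid-like cells served as a reference, since red cells are not known to make these chains, though the source of their UMIs was not tested. As a percent of the connective tissue-like level of the same library, COL1A1 there stood at 0.485% ± 0.376, COL3A1 at 0.399%, COL5A1 at 0.445%, COL6A1 at 0.470% and COL6A3 at 0.499% (means over 8 libraries, SD given for COL1A1). The 12 connective tissue markers together stood at 0.416%. The means of all 6 chains and the markers thus lay between 0.399% and 0.519%. Within that narrow range COL3A1/COL1A1 was still below its connective tissue-like value in 8 of 8 libraries, as tested further below. COL1A1 was at 116, 118, 232 and 92.4 CPM in the Contra libraries and at 13.4, 169, 22.7 and 9.66 CPM in the Intact libraries. The 3 lowest values were in Intact 1, 4 and 5, the libraries in which connective tissue-like cells gave 15.2% to 24.9% of UMIs, against 42.5% to 74.5% in the other 5.

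Even so, many erythroid-like cells held a collagen UMI. Among 2000 UMIs drawn, 25.3% of 1133 cells had one of COL1A1 (exact interval 22.8% to 28.0%), with 2.60% to 44.9% by library, at a median depth of 15649 UMIs. Undrawn, the share was 68.3%. These shares are set beside those of the other classes below. COL5A1 had a UMI in 6.97% of the drawn erythroid-like cells, COL6A1 in 3.88% and COL6A3 in 8.12%. The level in erythroid-like cells need not apply to other classes. The 12 markers stood at 2.67% in endothelial-like cells, 2.31% in mast cell or basophil-like cells and 1.53% in epidermal-like cluster 9. They stood at 3.24% in epidermal-like cluster 18 and 2.68% in epidermal-like cluster 5, whose median depths were only 2553.5 and 4258 UMIs. The mast cell or basophil-like cells had a median of 17603. Whether the level goes with depth was not tested. Where these marker UMIs came from was not tested.

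**Figure D2:**
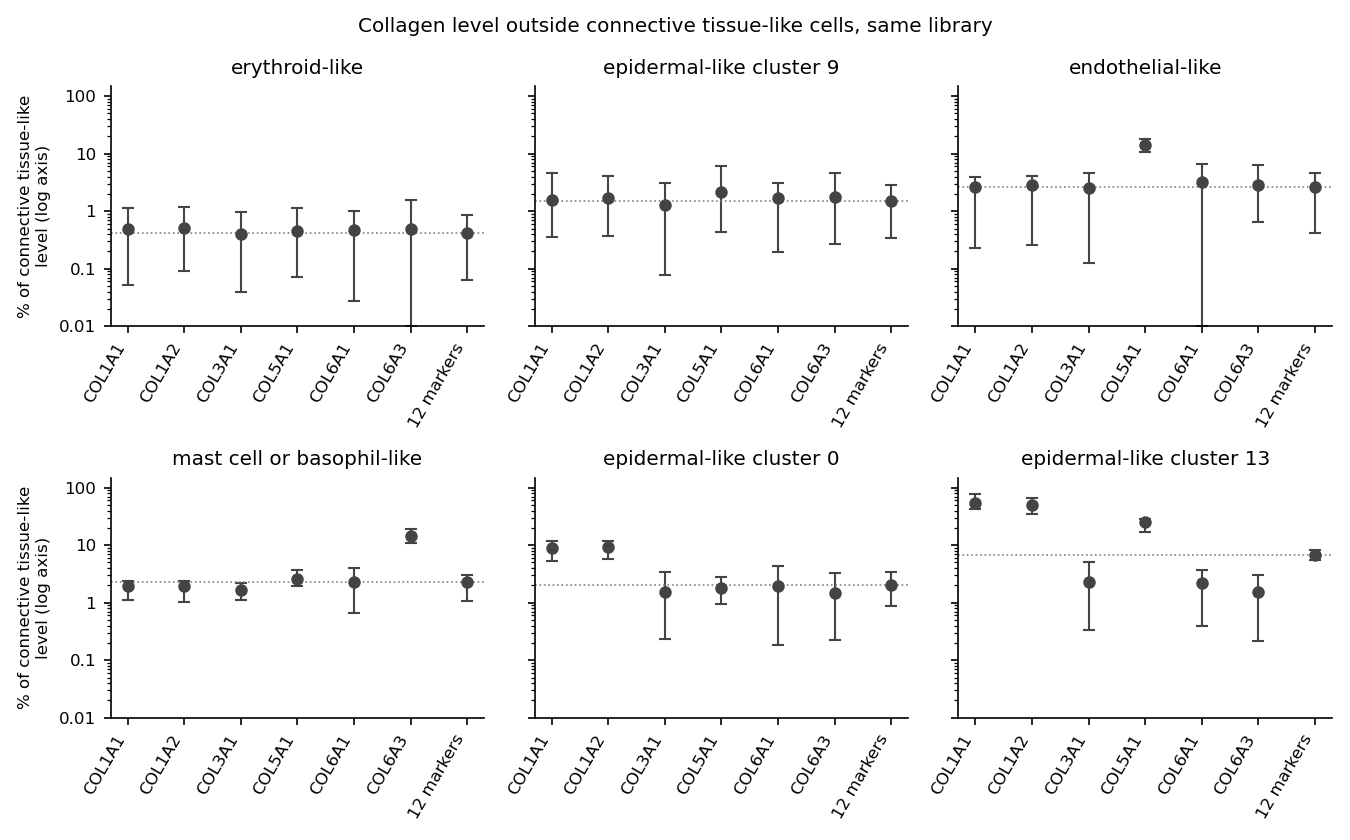
Level of each member in 6 sets of cells as a percent of its level in connective tissue-like cells of the same library (log axis); points are means over libraries, bars run from the lowest to the highest library, a bar reaching the lower edge means a library at 0, and the dotted line is the mean of 12 connective tissue markers. Members lie near the line in erythroid-like cells and epidermal-like cluster 9, while COL5A1 stands above it in endothelial-like cells (14.1% against 2.67%), COL6A3 in mast cell or basophil-like cells (14.5% against 2.31%), and COL1A1, COL1A2 and COL5A1 in epidermal-like cluster 13.

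A few departures from that common proportion stood out, each in some of the chains: COL1A1 and COL1A2 with some COL5A1 in an epidermal-like cluster, COL5A1 in endothelial-like cells and COL6A3 in mast cell or basophil-like cells. Ratios were tested per library with a 2-sided exact sign-flip permutation test of the class against the connective tissue-like cells, adjusted over 18 class and ratio pairs. For 8 libraries the smallest p it allows is 0.0078. Of the 18, 6 passed an adjusted p of 0.05. Without Intact 1, or without Intact 4, all 6 missed it and each kept its direction. The 5 that had the smallest possible p stood at an adjusted exact p of 0.0563. Their unadjusted exact p was then 0.0156, the smallest that 7 libraries allow.

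Epidermal-like cluster 13 carried the type I chains at near 50% of their connective tissue-like level and type III and VI chains at near 2%. It held 1011 cells led by ITGB4, an integrin of hemidesmosomes, LAMA3, a laminin chain of the epidermal basement membrane, and KRT19, a keratin. TP63, a regulator of basal epidermis, was at 660 CPM against 249 CPM in the other epidermal-like cells, and ITGB4 at 1369 CPM against 17.2 CPM. KRT5 (2463 against 1812 CPM) and CDH1 (83.8 against 41.9 CPM) were also higher. KRT12 (5521 against 17917 CPM) and EPCAM (364 against 612 CPM) were lower. The summed epidermal markers stood at 6785 to 14010 CPM over libraries, against 17277 to 24570 CPM in the whole class. COL1A1 was at 9177, 15434, 11843 and 8221 CPM in the Contra libraries and at 9460, 11713, 7295 and 10202 CPM in the Intact libraries. Relative to connective tissue-like cells this was 54.8% ± 10.5 for COL1A1 and 49.1% ± 9.06 for COL1A2 (SD, n = 8 libraries). COL5A1 reached 25.5% ± 3.63, with 1212, 1201, 1081 and 1104 CPM in Contra and 1127, 772, 1216 and 1364 CPM in Intact.

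The other chains stayed low in cluster 13. COL3A1 was at 973, 649, 876 and 390 CPM in Contra and at 70.2, 376, 164 and 51.9 CPM in Intact, or 2.32% ± 1.92 of the connective tissue-like level. COL6A1 was at 2.18% and COL6A3 at 1.56%. COL3A1/COL1A1 was accordingly 0.0284 in cluster 13, lying between 0.0051 and 0.106 over libraries, against 1.01 in connective tissue-like cells. COL3A1 was lowest in the libraries with the least connective tissue, Intact 1 and 5, where COL1A1 was as high as elsewhere.

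Most connective tissue markers in cluster 13, pooled over libraries, lay far below the 54.8% of COL1A1. Of the 12, all had a UMI there, and 9 of them, PDGFRA, PRRX1, TWIST1, TWIST2, LUM, OGN, FBLN1, MFAP5 and PTX3, lay between 1.38% and 4.01% of their connective tissue-like level. FBN1 was at 5.14%, DPT at 9.55% and DCN, the collagen-binding proteoglycan decorin, at 29.7% with 922 CPM. COL5A2, the usual partner of COL5A1, was at 82.9% with 205 ± 46.4 CPM, SPARC at 38.3% and SERPINH1 (AMEX60DD036819) at 84.2% (3 genes looked up after the pattern was seen). SPARC and SERPINH1 had been found most like COL1A1 over clusters that include cluster 13. COL6A2 was at 2.17%, like COL6A1. The summed tendon markers went the other way from most of the 12, at 83.4 to 205 CPM in cluster 13 over libraries, with no UMI of SCX. They were at 43.9 to 99.0 CPM in connective tissue-like cells and 12.1 to 33.1 CPM in the whole epidermal-like class.

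Single cells of cluster 13 showed the same split. Among 2000 UMIs drawn, 95.5% of 689 cells had a COL1A1 UMI (exact interval 93.7% to 96.9%) and 76.5% a COL5A1 UMI, against 25.3% and 6.97% of erythroid-like cells. Of its cells 376 (54.6%) had at least 10 COL1A1 UMIs in the draw, and 222 of these (59.0%) had no COL3A1 UMI. In connective tissue-like cells 62 of 12754 such cells (0.486%) had none. Without the 39 cells of the highest doublet scores COL1A1 averaged 10828 CPM, against 10418 CPM with them. The drawing left out 322 shallow cells of this cluster, whose median depth was 3088 UMIs.

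Epidermal-like clusters 0 and 14 had type I chains above the 12 markers, at lower levels and without the COL5A1 of cluster 13. Cluster 0 (3044 cells) had COL1A1 at 932, 1290, 1910 and 1043 CPM in Contra and at 2082, 2655, 1428 and 2117 CPM in Intact, or 8.86% of the connective tissue-like level, beside 1.504% for COL3A1. Cluster 14 (966 cells, led by IL1B and S100P) had 3.79% for COL1A1 and 4.65% for COL1A2, beside 0.41% for COL3A1 and 0.77% for the 12 markers. Cluster 9, led by UMOD and SLC26A4, had all chains between 1.28% and 2.17%, beside 1.53% for the markers. Among all epidermal-like cells outside cluster 13, 261 of 7946 (3.28%) had at least 10 COL1A1 UMIs in the draw, and 178 of the 261 (68.2%) had no COL3A1.

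Over the whole epidermal-like class COL3A1/COL1A1 was 0.112, against 1.01 in connective tissue-like cells of the same libraries. The log2 difference was -3.16, lower in 8 of 8 libraries, with an adjusted exact sign-flip p of 0.0281. COL5A1/COL1A1 was lower by the same test at a log2 difference of -1.40 and COL6A1/COL1A1 at -2.71, both in 8 of 8 libraries with an adjusted exact p of 0.0281. COL1A1/COL1A2 differed by -0.02, with an adjusted exact p of 0.469. COL6A1/COL6A3 differed by 0.31 and was higher in 7 of 8 libraries, which did not pass (adjusted exact p = 0.0527). These class values are weighted to cluster 13, which held 62149 of the class's 121802 COL1A1 UMIs. Pooled COL1A1 and COL3A1 UMIs were 27118 and 4768 in cluster 0, and 19381 and 2340 in cluster 14. They were 3344 and 3074 in cluster 9, and 1454 and 1073 in cluster 18. Clusters 5 and 11 lay between these in COL3A1/COL1A1. No epidermal-like cluster was tested alone.

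**Figure D3:**
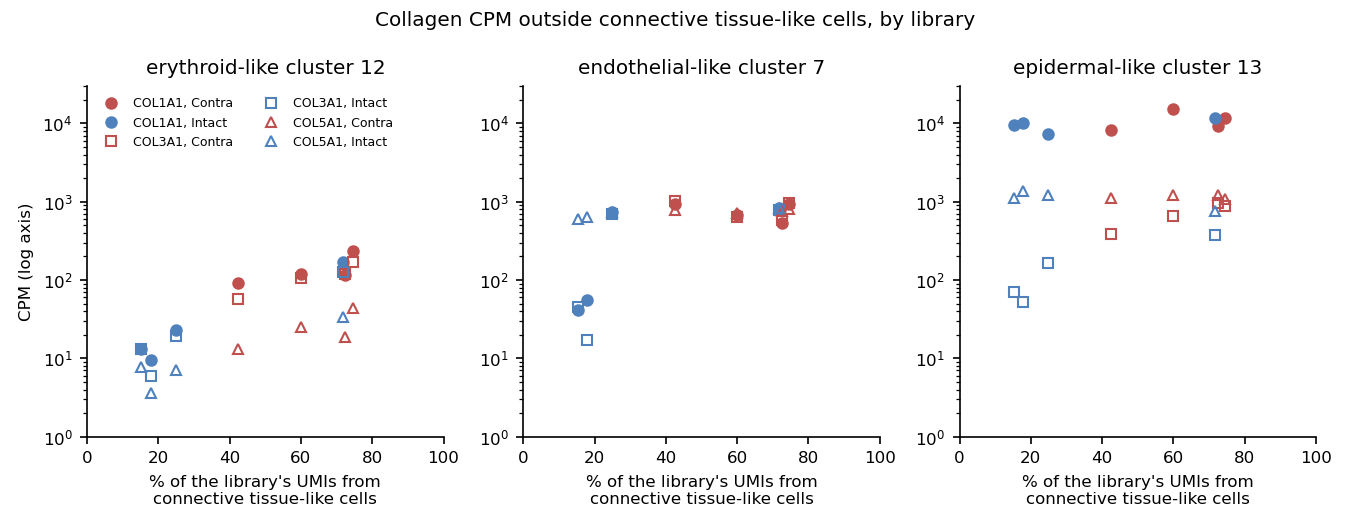
CPM of COL1A1 (filled circles), COL3A1 (squares) and COL5A1 (triangles) in 3 clusters (log axis) against the percent of the library's UMIs that came from connective tissue-like cells; each symbol is 1 library, Contra red and Intact blue. In erythroid-like cluster 12 all 3 chains are low in the libraries with little connective tissue, in endothelial-like cluster 7 COL5A1 stays at 606 to 828 CPM in every library, and in epidermal-like cluster 13 COL1A1 stays at 7295 CPM or above.

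Endothelial-like cells stood out in COL5A1. In the larger cluster 7 (1730 cells led by PROX1, VWF, MMRN1 and LYVE1, which include genes of lymphatic endothelium) COL5A1 was at 751, 724, 803 and 773 CPM in Contra and at 606, 828, 732 and 641 CPM in Intact. COL1A1 was at 535, 671, 924 and 926 CPM in Contra and at 41.3, 832, 732 and 55.9 CPM in Intact. COL5A1 thus varied little between libraries while COL1A1 was at 41.3 and 55.9 CPM in Intact 1 and 5, against 535 to 926 CPM in the other 6. In these 2 libraries COL5A1/COL1A1 reached 14.7 and 11.5. Cluster 19 (693 cells, led by APLNR, NOTCH1 and FLT1) had COL5A1 at 406 CPM and COL1A1 at 357 CPM.

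Over the endothelial-like class COL5A1 was at 14.1% ± 2.58 of the connective tissue-like level (10.5% to 17.7%), beside 2.61% for COL1A1, 2.50% for COL3A1, 3.28% for COL6A1, 2.85% for COL6A3 and 2.67% for the 12 markers. COL5A1/COL1A1 was 1.89 in endothelial-like cells, against 0.237 in connective tissue-like cells, a log2 difference of 2.997 in 8 of 8 libraries (adjusted exact sign-flip p = 0.0281). No other ratio of this class passed, and COL1A1/COL1A2 came closest at -0.11 (adjusted exact p = 0.0527). COL5A2 in cluster 7 was at 26.4% of the connective tissue-like level with 65.6 ± 13.2 CPM over 8 libraries, and COL6A2 at 4.36%. Of 1557 drawn cells of cluster 7, 71.4% had a COL5A1 UMI (exact interval 69.1% to 73.7%) and 45.7% a COL1A1 UMI, against 6.97% and 25.3% of erythroid-like cells. Without 74 cells of the highest doublet scores, COL5A1 in cluster 7 was at 692 CPM and COL1A1 at 429 CPM.

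Mast cell or basophil-like cells stood out in COL6A3. The class is cluster 23 (277 cells led by HDC, the histamine-forming enzyme, CPA3, a mast cell protease, and KIT), and 4 libraries had at least 20 of its cells. CTSS, which is on the macrophage list, was also among its leading genes. The summed macrophage markers were at 99262 to 118852.5 CPM in these libraries, against 3790 to 9107 CPM in unnamed cluster 16. COL6A3 was at 669, 488 and 843 CPM in Contra 1, 2 and 3 and at 503 CPM in Intact 3. That was 14.5% ± 3.70 of the connective tissue-like level (SD, n = 4 libraries), beside 2.29% for COL6A1, 1.96% for COL1A1, 2.55% for COL5A1 and 2.31% for the 12 markers. COL6A2 was at 2.62%. COL6A1/COL6A3 was 0.0930 over the 3 libraries with at least 10 UMIs of both chains, between 0.0772 and 0.102, against 0.506 in connective tissue-like cells over 8 libraries. With 4 libraries the smallest exact p is 0.125, so no ratio of this class could pass.

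Among 257 drawn cells of this class 48.6% had a COL6A3 UMI (exact interval 42.4% to 54.9%) and 5.45% a COL6A1 UMI, against 8.12% and 3.88% of erythroid-like cells. COL1A1 fell on 34.2% of cells. Without the 35 cells of the highest doublet scores COL6A3 was at 572 CPM, against 626 CPM with them, whereas COL1A1 was at 220 CPM without and 397 CPM with them. COL5A2, looked up after the pattern was seen, was at 46.8% with 104 CPM.

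Ratios between chains in erythroid-like cells were set against those of connective tissue-like cells in the same way. COL3A1/COL1A1 was lower there at a log2 difference of -0.34 in 8 of 8 libraries (adjusted exact sign-flip p = 0.0281). COL1A1/COL1A2 was lower at -0.21 in 7 of 8 libraries (adjusted exact p = 0.0469). The second of these missed the threshold in every other clustering, without cells of the highest doublet scores and without any 1 library other than Contra 5, and the first missed it at Leiden resolution 2. COL5A1/COL1A1 differed by a mean of -0.01, with single libraries between -0.71 and 1.22 (SD 0.62, n = 7, adjusted exact p = 0.938). The COL6A1 ratios had 5 libraries, where the smallest exact p is 0.0625, so they could not pass; COL6A1/COL1A1 differed by -0.80 to 0.28 and COL6A1/COL6A3 by -0.61 to 0.55. What part of any class's UMIs came from free RNA or from 2 cells in 1 droplet was not tested.

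The highest type I levels came from a small set of cells with bone genes. Cluster 25 (164 cells, unnamed) mixed bone and muscle genes, and a coarser clustering put 74 of them among muscle fibre-like cells and 70 into an unnamed cluster with BGLAP (osteocalcin) at 2174 CPM, IFITM5 at 1723 CPM, PHOSPHO1, a mineralization enzyme, at 1776 CPM and SP7, the osteoblast transcription factor osterix, at 421 CPM. This set was looked at after its values were seen. Cluster 25 had 8 muscle fibre markers raised and stayed unnamed through a rule on bone genes that was added after the data were seen. In these 70 cells COL1A1 was at 216056 CPM and COL1A2 at 184755 CPM of 1676962 UMIs, while COL3A1 was at 238, COL5A1 at 335, COL6A1 at 19.1 and COL6A3 at 28.0 CPM. COL1A1/COL1A2 was 1.17 and COL3A1/COL1A1 0.0011. Of the cells 7 were from Contra 1 (COL1A1 at 219329 CPM), 27 from Contra 3 (212779) and 22 from Intact 3 (234525). The other 5 libraries had 1 to 6 such cells each, with COL1A1 at 7209 to 48609 CPM. The 74 muscle fibre-like cells had COL1A1 at 499 CPM and COL3A1 at 313 CPM. SERPINH1 (AMEX60DD036819) and SPARC, among the genes most like the type I chains, were at 541 and 41213 CPM in the 70 cells. Their averages over libraries in connective tissue-like cells were 83.2 and 7488 CPM. That likeness was found over clusters that include cluster 25, so these values are no separate support for it.

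Other clusters that mixed the markers of several classes were also left unnamed. Cluster 22 (349 cells), with connective tissue and epidermal markers, had COL1A1 at 12391 CPM, COL3A1 at 11668 CPM and COL6A3 at 3259 CPM over 2 libraries. Cluster 16 (823 cells), with macrophage and T cell markers, had COL1A1 at 308 CPM and COL6A3 at 86.8 CPM over 8 libraries, or 1.56% and 2.14% of the connective tissue-like level beside 1.62% for the 12 markers. Without its 65 cells of the highest doublet scores, COL1A1 was at 170 CPM there. Cluster 24 (167 cells), with endothelial and muscle markers, had COL1A1 at 575 CPM over 5 libraries, or 2.86% of the connective tissue-like level beside 2.85% for the markers. Cluster 17 (791 cells), led by globin genes with epidermal and connective tissue markers, had COL1A1 at 313 and 8713 CPM in the 2 libraries that held enough cells, and clusters 26 (131 cells) and 27 (32 cells) had it at 12919 and 7991 CPM in 1 library each.

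The last comparison was Contra against Intact within connective tissue-like cells, counts summed per library and fitted over 32270 identifiers with edgeR's quasi-likelihood test. None of the 8 member identifiers passed an adjusted p of 0.05. The background was the same, since 0 of all 32270 identifiers (0%) passed, while 2535 had an unadjusted p under 0.05 and none of the members did. DESeq2 passed 65 identifiers, none of them a member. The median log2 fold change of all identifiers was -0.01.

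COL1A1, in CPM scaled by TMM, was at 18480, 19940, 24080 and 19030 in Contra 1, 2, 3 and 5 and at 17120, 23270, 14500 and 16380 in Intact 1, 3, 4 and 5. Contra averaged 20380 ± 2535 and Intact 17820 ± 3799 (SD, n = 4 each), a log2 fold change of 0.19 with a standard error of 0.18 and an edgeR adjusted p of 0.849. Intact 3 lay inside the Contra range and the other Intact libraries below it. COL1A2 was at 19120, 20020, 22080 and 17260 in Contra and at 17260, 20060, 16160 and 17030 in Intact, a log2 fold change of 0.15 ± 0.14 (SE). COL3A1 was at 19390, 22680, 20540 and 18580 in Contra and at 19330, 21460, 17250 and 13910 in Intact, a log2 fold change of 0.17 ± 0.16 (SE). For both, 2 or more Intact libraries fell inside or at the edge of the Contra range. Single libraries weighed on these values: the COL1A1 fold change was 0.11 without Contra 3 and 0.35 without Intact 3, that of COL1A2 0.10 without Contra 3 and 0.24 without Contra 5, and that of COL3A1 0.08 without Intact 5 and 0.27 without Intact 3.

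COL5A1 was the steadiest. It was at 4339, 4572, 4484 and 4439 in Contra, a mean of 4459 ± 97.1, and at 4328, 4662, 4384 and 4527 in Intact, a mean of 4475 ± 150 (SD, n = 4 each). Its log2 fold change was -0.01 ± 0.10 (SE) with an edgeR adjusted p of 1.00, and its sign changed with the scaling. COL6A1 averaged 2237 ± 233 in Contra and 2077 ± 221 in Intact, a log2 fold change of 0.11 ± 0.12 (SE), and COL6A3 4444 ± 498 in Contra and 4092 ± 567 in Intact, a log2 fold change of 0.12 ± 0.14 (SE). Without Contra 3 these were 0.05 for COL6A1 and 0.04 for COL6A3, and without Intact 3 they were 0.18 and 0.20. The minor COL5A1 identifiers AMEX60DD031841 and AMEX60DD031839 averaged 41.4 and 0.579 in Contra and 36.5 and 0.272 in Intact, with edgeR adjusted p of 0.845 and 0.762. All 8 identifiers overlapped between Contra and Intact, as did most of all 32270, of which 5.53% did not.

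**Figure D4:**
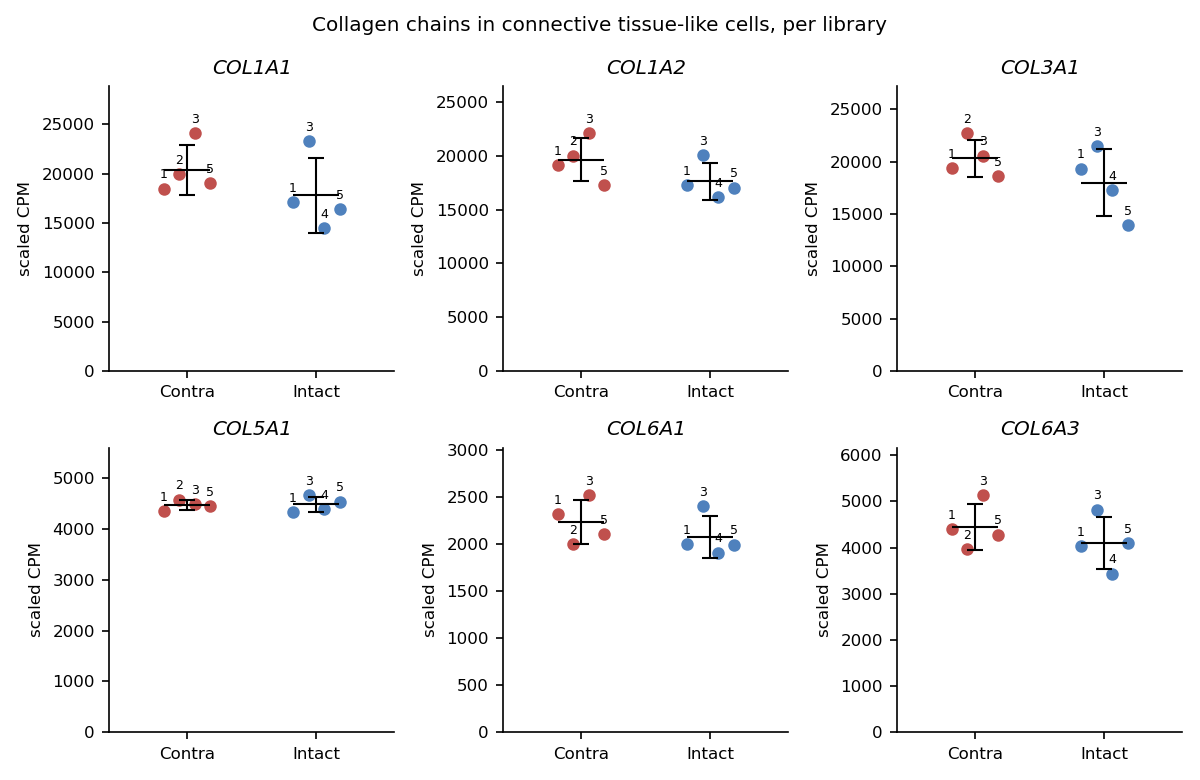
TMM-scaled CPM of each member in connective tissue-like cells, 1 point per library with its number, Contra on the left and Intact on the right; bars are mean and SD (n = 4 each) and axes start at 0. The Contra and Intact points overlap for all 6 members, and COL5A1 lies within 4328 to 4662 CPM in all 8 libraries.

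Ratios between chains, which need no scaling between libraries, gave the same picture. COL5A1/COL1A1 had a mean log2 value of -2.19 ± 0.16 in Contra and -1.97 ± 0.26 in Intact (SD, n = 4 each). The difference of -0.21 had an exact permutation p of 0.2, adjusted to 0.905 over 5 ratios, 2-sided over 70 assignments, where the smallest p possible is 0.0286. Its values were 0.235, 0.229, 0.186 and 0.233 in Contra and 0.253, 0.200, 0.302 and 0.276 in Intact, so Intact 3 lay inside the Contra range. COL1A1/COL1A2 differed by 0.06, COL3A1/COL1A1 by -0.02, COL6A1/COL6A3 by -0.02 and COL6A1/COL1A1 by -0.10, with exact permutation p-values of 0.371 to 0.943. By cluster, the mean COL5A1/COL1A1 was lower in Contra than in Intact in 8 of 10 clusters and higher in clusters 1 and 21. Libraries overlapped in every cluster, and no test was run. Cluster 21 had only 1 Intact library with enough cells, and clusters 2, 10 and 20 had 3.

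The 6 clusters with at least 20 cells in every library were fitted one by one over 14474 to 17622 identifiers. No identifier passed in clusters 1, 3, 4, 6, 8 or 15 (0% each), and 509 to 1470 had an unadjusted p under 0.05. Of 36 member tests, 0 passed, 0 had an unadjusted p under 0.05, 19 fold changes were above 0 and 17 below. They ran from -0.42 for COL3A1 in cluster 1 to 0.33 for COL3A1 in cluster 15, and the lowest edgeR adjusted p was 0.629. In 1 of the 36, COL3A1 in cluster 4, Contra and Intact did not overlap, with 15685, 15782, 15948 and 15839 CPM in Contra and a mean of 13060 in Intact (14002, 14607, 11927 and 11707), a log2 fold change of 0.28. In cluster 4, 6.16% of all identifiers tested did not overlap, against 4.63% in cluster 1, 3.12% in cluster 3, 3.86% in cluster 6, 4.42% in cluster 8 and 4.26% in cluster 15.

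**Figure D5:**
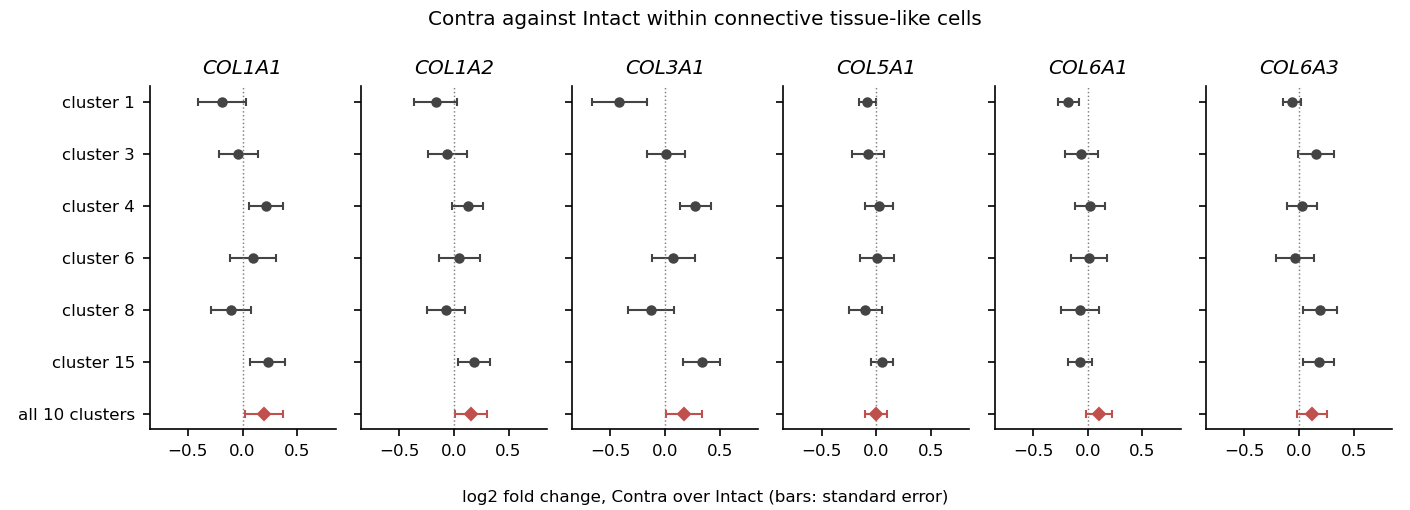
Log2 fold change of each member, Contra over Intact, with its standard error, in 6 connective tissue-like clusters (circles) and in all 10 clusters together (red diamonds); the dotted line is 0. The estimates lie on both sides of 0, 19 above and 17 below, and none passed the test.

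The machinery that makes and handles these collagens did not pass the test either. Over 9 lists of collagen genes, 75 symbols with 116 identifiers were tested, 0 passed, 68 fold changes (58.6%) were above 0 and 12 (10.3%) had an unadjusted p under 0.05, against 47.8% and 7.86% of all 32270 identifiers. In folding and modification of procollagen, 15 of 24 identifiers were above 0 with a median log2 fold change of 0.04, against -0.01 for all identifiers. PPIB, a prolyl isomerase, averaged 1042 ± 194 CPM in Contra and 902 ± 112 CPM in Intact, and P4HB, a subunit of prolyl 4-hydroxylase, 723 ± 89.5 and 614 ± 32.4 CPM (SD, n = 4 each). Their log2 fold changes were 0.21 and 0.24, with edgeR adjusted p of 0.751 and 0.626. FKBP10 was at 0.05. In export of procollagen from the endoplasmic reticulum 7 of 10 were above 0 (median 0.04). SEC24D, a coat protein of export vesicles, gave the lowest adjusted p of all lists, with 105 ± 5.53 CPM in Contra and 140 ± 17.3 CPM in Intact, a log2 fold change of -0.41 and an edgeR adjusted p of 0.515.

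Among other chains, COL6A2 averaged 2684 ± 219 CPM in Contra and 2577 ± 187 CPM in Intact, and COL5A2 234 ± 16.1 and 266 ± 31.2 CPM (SD, n = 4 each), at log2 fold changes of 0.06 and -0.18. The other fibril-forming chains had 6 of 11 identifiers above 0 (median 0.03) and the other type VI chains 3 of 5 (median 0.03). The fibril-associated collagens had 3 of 7 above 0 (median -0.07). COL12A1 led them with 647 ± 161 CPM in Contra and 583 ± 53.6 CPM in Intact. Trimming of procollagen had 10 of 18 above 0 (median 0.04), with BMP1, the C-propeptide protease, at 0.04. Crosslinking had 4 of 7 above 0 (median 0.13), with LOXL1 at 0.20 and LOXL2 at 0.21, both lysyl oxidases. Receptors had 12 of 19 above 0 (median 0.07), with ITGB1 at 0.01, and regulators of collagen genes had 8 of 15 (median 0.08), with TGFB2 at 0.19 and the 2 leading TGFBR2 identifiers at 0.31 (AMEX60DD022702) and -0.07 (AMEX60DD056061).

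Other features of connective tissue-like cells varied between libraries. Apart from the macrophage markers, those given here overlapped between Contra and Intact. Summed macrophage markers were at 114 to 193 CPM in Contra and 67.0 to 101 CPM in Intact, without overlap. Of all 32270 identifiers 5.53% did not overlap. Summed immediate early genes, which rise when tissue is dissociated, were at 2013 to 4637 CPM in Contra and 1879 to 5649 CPM in Intact, and epidermal markers at 1106 to 1359 CPM in Contra and 897 to 1595 CPM in Intact. None of the 14 immediate early genes' 19 identifiers passed, with a median log2 fold change of 0.12. Cluster 20, the richest in COL1A1, made up 1.08% to 10.7% of connective tissue-like cells in Contra and 1.66% to 17.7% in Intact, and cluster 2 made up 11.7% to 20.7% and 5.57% to 12.2%. The part of these shares and markers in the members' values was not tested.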

How the data were processed

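The deposited file is 1 matrix of raw UMI counts for 8 libraries, with 60956 genes and 34149 barcodes; the submitters' processing notes name kallisto 0.48.0 and Seurat 4.2.0 with no role, and the genome build and cell filters are not given in the sources used here. Barcodes with at least 500 genes were used (33860). Scrublet called and removed 101 of them (0.298%), too few to have worked, leaving 33759, and 1352 more cells of the highest scores were removed as an alternative; 135 barcodes occur in more than 1 library. Counts were scaled to 10000 per cell and clustered with Leiden at resolution 1 (20 neighbours, 30 components, 2000 variable genes, no library correction; scanpy 1.11.5), without collagen identifiers. A cluster was named where at least 3 markers of a list reached 20 CPM and 4 times their lower quartile over clusters, and no unrelated list was raised as clearly. A rule added after the data were seen left a cluster unnamed where at least 3 bone genes were among its leading genes, as in cluster 25. The members, lists and markers were chosen with earlier results of these data known. Named genes are all member identifiers, the 3 highest in each list, and the 3 most like each member; genes that lead a cluster and fixed markers are named to describe clusters, and other genes are marked as looked up after their values were seen.

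Counts summed per library were tested with edgeR 4.0.16 (quasi-likelihood, TMM, filterByExpr, Benjamini-Hochberg over all genes tested; R 4.3.3) and DESeq2 1.42.0 as an alternative. Ratios were tested by exact permutation over all assignments or sign flips, and exact Clopper-Pearson intervals were taken with scipy 1.17.1. Scripts were tested on simulated data. Cells were thinned without replacement to compare shares.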

Additional observations from a re-analysis of the deposited data

Results flagged for a closer look

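Of 26 groups of 4 libraries examined, 2 held a library whose gap to its neighbour was too wide, as a part of the group's range, for Dixon's test at 95%; chance flags about 1 in 20 groups. In connective tissue-like cells of Contra, log2 COL5A1/COL1A1 was lowest in Contra 3 at -2.425, against -2.12, -2.10 and -2.09 in the other 3. In connective tissue-like cells of Intact, log2 COL6A1/COL6A3 was highest in Intact 4 at -0.8463, against -1.04, -1.01 and -1.004 in the other 3. No cause was tested for either.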

How the results depend on the processing

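No member identifier passed under any setting of the Contra against Intact fit. The count of identifiers that passed was 0 in the main fit, with DESeq2 size factors in edgeR, with a term for libraries numbered 1 and 3, and without each library in turn; it was 65 with DESeq2, 1 with no filter on low counts and 216 with the replicate block over the 3 shared numbers. Deviations from the group means correlated at -0.0096, 0.456 and 0.209 between Contra and Intact libraries numbered 1, 3 and 5. Between unlike numbers they correlated at -0.332 to 0.155, so numbers 3 and 5 lay above every unlike pair and number 1 did not. The main fit did not pair libraries by number, and what same-numbered libraries share was not tested. The COL5A1 fold change of -0.01 reversed to 0.000541 with DESeq2 size factors, 0.00742 with DESeq2, 0.0354 with no filter, 0.00845 at resolution 0.5, 0.00592 at resolution 2 and 0.00663 with collagens kept in the clustering, and ran from -0.0210 to 0.0305 without each library. In the clusters, 0 to 2 passed in cluster 1 (2 without Contra replicate 1), 0 to 1 in cluster 3 (1 without Intact replicate 3) and 0 to 3 in cluster 4 (3 without Intact replicate 3 and 1 without Intact replicate 4). Between Contra and Intact, COL6A1/COL6A3 reversed to 0.0259 with the replicate block and ran from -0.0374 to 0.0271 without each library, COL3A1/COL1A1 ran from -0.105 to 0.0567, and COL6A1/COL1A1 was 0.0630 within numbers 1 and 3 and -0.267 within the others. COL5A1/COL1A1 ran from -0.330 to -0.132 without each library and kept its sign. Its lowest unadjusted exact permutation p was 0.0286, the smallest this test allows, and it passed adjustment in none of these settings.

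Against connective tissue, epidermal-like COL6A1/COL6A3 passed at 0.412 without cells of the highest doublet scores. Erythroid-like COL1A1/COL1A2 no longer passed at -0.206 without those cells, -0.186 at resolution 0.5, -0.204 at resolution 2 and -0.180 with collagens kept in; COL3A1/COL1A1 no longer passed at -0.239 at resolution 2; COL5A1/COL1A1 reversed to 0.0663 at resolution 2 and 0.0397 with identifiers summed. With 7 libraries the smallest exact p is 0.0156, and the ranges without each library were 2.63 to 3.16 (endothelial-like COL5A1/COL1A1), -0.125 to -0.0903 (endothelial-like COL1A1/COL1A2), -3.35 to -2.85, -1.46 to -1.30, -2.88 to -2.40 and 0.258 to 0.358 (epidermal-like COL3A1/COL1A1, COL5A1/COL1A1, COL6A1/COL1A1 and COL6A1/COL6A3), and -0.241 to -0.126, -0.379 to -0.288, -0.219 to 0.102, -0.158 to 0.113 and -0.114 to 0.176 (erythroid-like COL1A1/COL1A2, COL3A1/COL1A1, COL5A1/COL1A1, COL6A1/COL1A1 and COL6A1/COL6A3). Without Contra 1, 2 or 3 or Intact 3, the mast cell or basophil-like ratios had too few libraries to be tested. Fewer pairs then entered the adjustment, which can lower the adjusted p at the same exact p. Without Intact 1, Intact 4, Intact 5 or Contra 5 all 18 pairs entered it. Without Intact 5, epidermal-like COL6A1/COL6A3 also stood at the smallest exact sign-flip p, 0.0156, and its adjusted p was 0.0469. The adjusted p depends as well on how many pairs stand at that smallest p. No further cause of these changes was tested. The epidermal-like, endothelial-like and erythroid-like ratios that had passed at the smallest possible p missed the threshold without Intact 1 and without Intact 4. Their adjusted exact p was 0.0563, with the direction kept. Before adjustment each stood at 0.0156, the smallest possible, so no larger difference could have given a lower exact p. Endothelial-like COL1A1/COL1A2 passed without Contra 2 and epidermal-like COL6A1/COL6A3 without Intact 5.

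The planned relation between stray level and library content was not given as a correlation, because the libraries fall into 2 sets by connective tissue content, and its alternatives were not run. Mast cell or basophil-like cells rest on 4 libraries and 277 cells, and COL6A1 outside connective tissue on few UMIs.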
